A study of Mus musculus with 18 samples.

Results

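Genes of antibody-secreting cells were followed through a transcriptome atlas of the mouse urinary bladder. They were 5 immunoglobulin constant-region genes (Igkc, Ighm, Igha, Iglc1 and Iglc2) and 4 plasma cell genes (Jchain, Mzb1, Derl3 and Tnfrsf17), which makes 9 of the 32747 genes listed in any table. The genes were chosen by name with their level in these data already known, so their levels within libraries and their place in cells and spots are described without a test. Differences between ages and between bulk preparations were tested across all genes, and that choice limits how they are read. All 9 were listed in the tables of the tissue sections, the nuclei and both detrusor preparations, and Jchain, Mzb1, Derl3 and Tnfrsf17 alone in those of whole-bladder cells and of bulk RNA.

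The atlas joined droplet single-cell and single-nucleus RNA sequencing with Visium spatial arrays, on which barcoded spots capture RNA under a tissue section, and with bulk RNA sequencing. All 18 samples came from C57BL/6 mice with no treatment or transgene named in the labels, and most labels name a group of animals. The 5 whole-bladder cell libraries came from 3 males aged 22 months, 3 males aged 3 months, 2 groups of 2 females and 2 males aged 12 months, and 2 females and 2 males aged 24 months. A nuclear preparation of whole bladder came from 2 females and 2 males aged 12 months. Detrusor, the bladder's muscle layer, was taken alone from 3 females aged 14 months, and a detrusor-enriched whole bladder from 2 females and 2 males aged 14 months. Of the 4 frozen sections, labelled with 4 males each, 2 were from 22 months and 2 from 14 months. The 6 bulk libraries, labelled with 3 females aged 12 months each, held 3 of intact bladder and 3 of dissociated bladder. The labels do not say whether samples of a group shared animals, so p-values measure the spread between these samples only.

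An antibody pairs identical heavy chains with identical light chains. Igkc encodes the constant part of the kappa light chain, Iglc1 and Iglc2 those of lambda light chains, and Ighm and Igha the constant parts of the heavy chains of IgM and IgA. A plasma cell, the end stage of a B cell, keeps a single heavy and a single light chain and turns most of its secretory pathway over to them. Jchain encodes the joining chain that links IgM pentamers and IgA dimers. Mzb1 encodes a chaperone of the endoplasmic reticulum that helps immunoglobulin assembly, Derl3 a part of the channel through which misfolded proteins leave that compartment for degradation, and Tnfrsf17 the receptor BCMA, through which the cytokines BAFF and APRIL keep long-lived plasma cells alive. Derl3 is a known target of the unfolded-protein factor XBP1.

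In the RefSeq gene table for GRCm38.p6, the same assembly as the mm10 build named in the submitters' processing notes, Igkc lies on chromosome 6 (70726435 to 70726754). Ighm (113418826 to 113422730) and Igha (113256204 to 113260236) lie in the heavy-chain cluster of chromosome 12. Iglc1 (19061752 to 19062071) and Iglc2 (19198536 to 19198852) lie on chromosome 16, as does Tnfrsf17 (11313232 to 11320074). Jchain spans 88519809 to 88527897 on chromosome 5 and Derl3 75893398 to 75895941 on chromosome 10. The lambda constant genes, with Iglc3, are related in sequence, as are the IgG heavy-chain genes. How the authors' counting treated reads that fit several of them is not given in the sources used here. Its part in the split of reads between related genes was not tested.

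Promoter sequence is shown for 3 of the 9 genes, because Derl3 is a known target of the unfolded-protein response, whose elements can be looked for in all 3. Each run is the 250 bases before the annotated start in RefSeq GRCm38.p6, read on the gene's own strand; that of Tnfrsf17 belongs to a start inside the gene's span. Capitals mark CCACG (the core of the unfolded-protein response element) and ACGTG (the core bound by XBP1 and related factors) on either strand, and the CCAAT part of the endoplasmic reticulum stress element, in which CCAAT and CCACG stand 9 bases apart.
Jchain, chr5:88527898-88528147, minus strand: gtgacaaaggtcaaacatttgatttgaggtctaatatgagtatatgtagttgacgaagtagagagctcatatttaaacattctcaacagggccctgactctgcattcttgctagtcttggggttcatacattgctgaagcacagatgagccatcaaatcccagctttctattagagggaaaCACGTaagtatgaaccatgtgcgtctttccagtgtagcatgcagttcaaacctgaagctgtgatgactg
Derl3, chr10:75893148-75893397, plus strand: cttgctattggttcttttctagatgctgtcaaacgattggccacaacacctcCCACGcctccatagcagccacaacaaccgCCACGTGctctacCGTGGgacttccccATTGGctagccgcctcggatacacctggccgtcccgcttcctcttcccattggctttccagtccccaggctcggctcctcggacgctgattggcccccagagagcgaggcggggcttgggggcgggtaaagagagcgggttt
Tnfrsf17, chr16:11313559-11313808, plus strand: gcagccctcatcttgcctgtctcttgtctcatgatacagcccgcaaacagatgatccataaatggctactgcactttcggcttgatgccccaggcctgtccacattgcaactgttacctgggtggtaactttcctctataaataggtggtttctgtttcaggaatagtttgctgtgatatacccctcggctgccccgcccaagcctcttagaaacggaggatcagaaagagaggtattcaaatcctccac

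The Derl3 window held 3 matches to CCACG, at 198, 169 and 156 bases before the start, 2 overlapping matches to ACGTG inside CCACGTG, and 1 match to the stress element, on the opposite strand. The stress element was found in 0.113% of 32851 promoters of this length, CCACG in 28.3%, ACGTG in 16.6% and CCAAT in 33.9%. Jchain held 1 ACGTG, 69 bases before the start, and Tnfrsf17 held none of these motifs. The octamer ATTTGCAT, a known element of immunoglobulin promoters, was in none of the 3 windows and in 1.60% of all promoters. A match is a run of letters and not a measured binding site.

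The 4 sections held 939 to 1321 spots and 21976101 to 32021223 UMIs (unique molecular identifiers, 1 for each captured molecule), the 8 droplet libraries 1021 to 9080 barcodes and 5197910 to 55374101 UMIs, and the 6 bulk libraries 23083752 to 68760791 reads. Levels are given as CPM, a gene's count divided by the library's total and multiplied by 1000000, and are not divided by gene length, so levels of different genes are not ranked. Median depth per barcode differed widely, from 1126 UMIs in nuclei and 1837 in the 3-month cells to 15042 in 1 of the 12-month libraries. The male cell libraries of 22 and 3 months shared 64 barcodes of 14 bases, other droplet libraries at most 15, and the sections share array barcodes by design. In whole sections and bulk RNA, more cells of a type and more RNA per cell cannot be told apart. Intervals and detection limits cover counting error only.

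In the sections, immunoglobulin RNA was highest in a single section of 22 months. The kappa gene Igkc stood at 246 and 1361 CPM in the sections of 22 months and at 7.19 and 63.0 CPM in those of 14 months. Ighm, the IgM heavy chain, stood at 257 and 1733 against 15.2 and 85.4 CPM. Igha, the IgA heavy chain, had another order, with 40.5 and 2.16 CPM at 22 months and 1.23 and 5.09 CPM at 14 months. Section 1 of 22 months was thus the highest for Igha and section 2 of 22 months for all 8 other genes.

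The lambda genes had by far their highest level in section 2 of 22 months. Iglc1 stood at 1.59 and 81.2 CPM at 22 months and at 0 and 0.435 CPM at 14 months, and Iglc2 at 3.25 and 19.8 against 0 and 0.304 CPM. Single spots held 796 and 288 of the 1844 Iglc1 UMIs of section 2 of 22 months, so its level there rests largely on them. A count of 0 in section 1 of 14 months allows a level of up to 0.137 CPM (3 counts). The related Iglc3 stood at 192 CPM in section 2 of 22 months and at or below 0.593 CPM in the other 3.

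Jchain, Mzb1 and Derl3 were also highest in section 2 of 22 months. Jchain stood at 16.3 and 109 CPM at 22 months and at 0.865 and 5.13 CPM at 14 months. Mzb1 stood at 2.22 and 34.9 against 0.409 and 0.652 CPM, and Derl3 at 1.25 and 4.63 against 0.501 and 0.478 CPM. Tnfrsf17 stood apart from them, with 0.718 and 0.969 against 0.637 and 0.609 CPM, from 14 to 23 UMIs in each section, and its counting intervals overlapped in all 4.

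**Figure D1:**
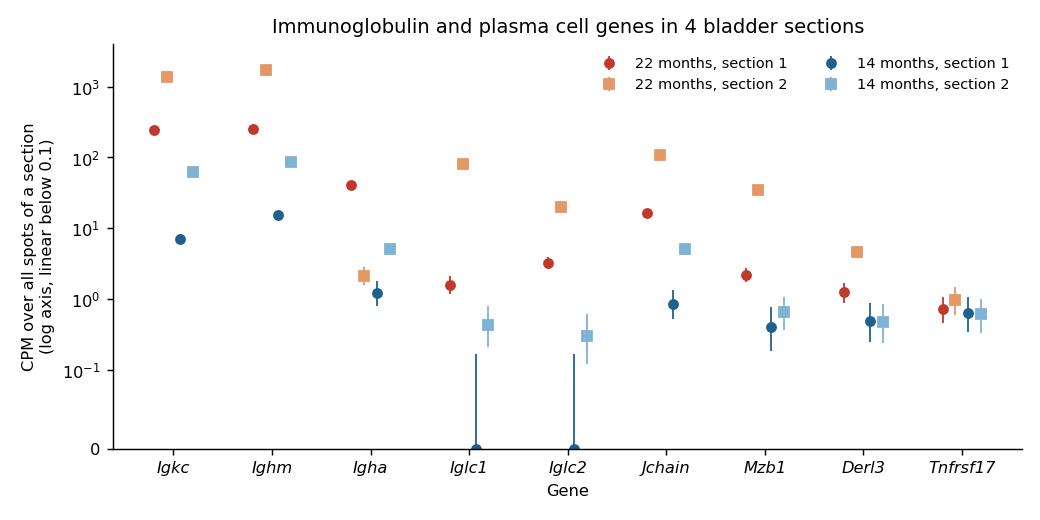
CPM over all spots (vertical axis, logarithmic, linear below 0.1) of each gene in each of the 4 sections; points are sections and bars exact 95% Poisson intervals of the count. The section of 22 months drawn as squares lies highest for every gene except Igha, and the points of Tnfrsf17 lie between 0.609 and 0.969 CPM.

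Both sections of 22 months lay above both of 14 months for 8 of the 9 genes, Igha being the exception, where 26.3% of the 14974 genes tested did so. The 9 genes were chosen with their levels known, so this count is a description only. In edgeR's quasi-likelihood test none of the 9 genes was called (adjusted p under 0.05), nor was any other gene (0% of those tested). Without adjustment 2477 genes passed 0.05, and DESeq2 on the same counts called 419. The fitted log2 fold change of 22 over 14 months was 4.63 for Igkc (SE 1.92, edgeR adjusted p = 0.41), 4.42 for Ighm (SE 1.81, adjusted p = 0.40) and 4.47 for Jchain (SE 1.75, adjusted p = 0.39). It was 5.19 for Mzb1 (SE 2.21, edgeR adjusted p = 0.41), 2.63 for Derl3 (SE 0.78, adjusted p = 0.23) and 0.49 for Tnfrsf17 (SE 0.40, adjusted p = 0.57). For Iglc2 it was 6.24 (SE 1.81, edgeR adjusted p = 0.28). Without adjustment Derl3 and Iglc2 passed 0.05 and the other 7 genes did not. By DESeq2, Mzb1 (5.23, adjusted p = 0.042) and Derl3 (2.66, adjusted p = 0.021) were called. Without section 1 of 22 months, which leaves the highest section as the only one of its age and the spread to the sections of 14 months alone, edgeR called Mzb1 at 6.12 (adjusted p = 0.00063) and Derl3 at 3.32 (adjusted p = 0.018), where 0.884% of all genes were called higher, and Igha turned to -0.44. With 1 section left out the fitted change ran from 2.85 to 6.87 for Igkc, from 2.39 to 6.10 for Ighm, from 2.46 to 6.23 for Jchain, from 2.07 to 6.12 for Mzb1 and from 1.37 to 3.32 for Derl3, the lowest value of each without section 2 of 22 months. Over all alternatives the adjusted p ran from 0.00063 to 0.75 for Mzb1 and from 0.018 to 0.58 for Derl3.

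Of the 8 B cell list genes tested in the sections 0 were called, and 7 had a positive fitted change (median 2.18). Cd79a, a chain of the B cell receptor complex, stood at 1.12 and 16.2 CPM at 22 months and at 0.273 and 0.304 CPM at 14 months. Its partner Cd79b stood at 2.06 and 16.2 against 1.73 and 2.87 CPM, so that section 1 of 22 months lay between the sections of 14 months. Of 12 T or NK cell genes 0 were called and 11 were positive (median 1.41), with Cd3e at 2.94 and 5.11 against 1.5 and 1.78 CPM. Without section 2 of 22 months the medians were 0.87 (5 of 8 positive) and 0.54 (10 of 12), with 0 called, where 0.0654% of all genes were called higher. Without section 1 of 22 months they were 3.95 over 14 tested B cell genes, 7 of them called, and 2.01 over 12 T or NK genes, 5 of them called, all higher, where 0.884% of all genes were called higher. Their part in the difference was not tested. The plasma cell identity list had a median of -0.08 over 10 tested genes, 4 of them positive, and the secretory machinery list 0.01 over 16, 8 of them positive, beside a median of 0.0005 over all genes. Xbp1 itself stood at 108 and 115 against 121 and 127 CPM.

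The sections also differed in the kinds of chain. Lambda transcripts made up 17.7% (exact 95% interval 17.3 to 18.1) of light-chain UMIs in section 2 of 22 months, 2.16% (1.85 to 2.50) in section 1 of 22 months, 1.56% (0.994 to 2.34) in section 2 of 14 months and 0.629% (0.0159 to 3.45) in section 1 of 14 months. Igha made up 12.4% of heavy-chain UMIs in section 1 of 22 months and 0.101% in section 2 of 22 months, where IgG genes held 18.6%. IgG genes held 9.07% in section 1 of 22 months, 11.5% in section 2 of 14 months and 2.91% in section 1 of 14 months. The remaining heavy chains were almost all Ighm, between 78.4% and 88.4%, and Ighd, the IgD chain of naive B cells, held 0.0846% to 1.59%. Single IgG genes also differed between sections. Ighg2c stood at 176 CPM in section 2 and 1.03 CPM in section 1 of 22 months. Ighg1 stood at 120 and 9.15 CPM and Ighg2b at 98.4 and 19.4 CPM in the same order. Ighg1 had no UMI in either section of 14 months.

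Few spots held most of the chains. The 5% of spots with the most Igkc held 77.9% and 69.7% of its UMIs in sections 1 and 2 of 22 months and 88.0% and 90.1% in those of 14 months. For Ighm the same share was 74.3% and 69.3% at 22 months and 78.3% in section 2 of 14 months, but 45.2% in section 1 of 14 months. An Igkc UMI was found in 57.0% and 86.2% of spots at 22 months and in 7.03% and 16.5% at 14 months. With spots of at least 5000 UMIs thinned to 5000, it was found in 28.6%, 75.9%, 2.83% and 7.90% of those. Jchain was found in 12.3%, 42.0%, 1.92% and 3.74% of spots, and after thinning in 4.36%, 21.7%, 0.326% and 1.47%. Thinning left out the spots below 5000 UMIs, 14 and 181 at 22 months and 19 and 35 at 14 months. The thinned share of section 2 of 22 months thus lacks its shallow spots.

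Spots were grouped into 41 regions by their expression, with every immunoglobulin gene and the 9 genes left out, and the regions are named here by their leading genes. In section 2 of 22 months a region of 116 spots led by the B cell genes Cd79a, Pou2af1, Ms4a1 and Cd79b held 52.8% of the UMIs of the 5 constant genes. It stood at 5374 CPM for Igkc, 6489 for Ighm, 455 for Iglc1, 421 for Jchain and 162 for Mzb1, and contained 54 of the 105 Derl3 UMIs of the section. The next region, 147 spots led by Fcna, Retnla, Apod and the fibroblast gene Clec3b, held 15.6%, with Igkc at 2164 CPM but Cd79a at 7.34 CPM against 97.0 CPM in the first.

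In section 1 of 22 months and section 2 of 14 months, regions led by endothelial or stromal genes held most of the constant-gene UMIs. In section 1 of 22 months a region of 90 spots led by the endothelial genes Cytl1, Lrg1, Cldn5 and Pecam1 held 36.8%, with Igkc at 1614, Ighm at 1579 and Igha at 474 CPM, and one of 83 spots led by Cck, Chodl and Col1a1 held 34.7%, with Igha at 24.1 CPM. Single spots held 427 and 166 of the 830 Igha UMIs of the region of 90 spots. Of the 40 Derl3 UMIs of this section, the regions of 90 and 83 spots held only 3 and 9. In section 2 of 14 months a region of 73 spots with the same leading genes Cytl1, Lrg1, Cldn5 and Vwf held 65.9%, with Igkc at 818 and Ighm at 980 CPM, although only 27.4% of its spots had an Igkc UMI. Single spots held 424, 329 and 177 of the 1042 Igkc UMIs of this region. Cd79a stood at 8.57 and 1.57 CPM in these 2 endothelial-led regions, and Ms4a1 at 0 and 1.57 CPM. The hemoglobin gene Hba-a1 was among the 10 leading genes of both, and the part of blood in their values was not tested. In section 1 of 14 months no region held more than 19.7%: regions led by Car3 and Spon1, by Alb, Hba-a1 and Apobec2, and by Lrrc3 and Npy1r held 19.7%, 17.9% and 13.9%.

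Ighm was also found where Igkc was nearly absent. In section 2 of 14 months a region of 166 spots led by the macrophage genes Ccl8, Ccl6, Cd209f and Folr2, with C1qa at 1047 CPM, had Ighm in 50.6% of its spots and Igkc in 6.63% (58.7 and 6.86 CPM). Section 1 of 22 months had a region of 148 spots led by Ccl8, Pi16 and Folr2. There Ighm stood at 254 and Igkc at 250 CPM. In section 1 of 14 months 3 regions of 108, 113 and 93 spots had Ighm at 28.7, 18.4 and 11.8 CPM and Igkc at 1.20, 0 and 0.588 CPM, with Jchain at or below 0.658 CPM. A region of 88 spots of that section, with C1qa at only 43.8 CPM, had Ighm at 3.43 and Igkc at 0.202 CPM. Of the 873 and 938 spots without Igkc in sections 1 and 2 of 14 months, 23.7% and 32.0% had an Ighm UMI. C1q genes stood at 838 and 1132 CPM in those with Ighm and at 577 and 946 CPM in those without, but in section 1 of 22 months at 604 with and 893 without. Spots with Ighm were the deeper ones, with a median of 16972 against 15951 UMIs and 15847 against 12959 UMIs in sections 1 and 2 of 14 months and 15343 against 10592 UMIs in section 1 of 22 months. In section 2 of 22 months the 55 spots with Ighm had a median of 7026 UMIs and the 97 without only 442, so no C1q level is set against another there. The part of depth was not tested.

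**Figure D2:**
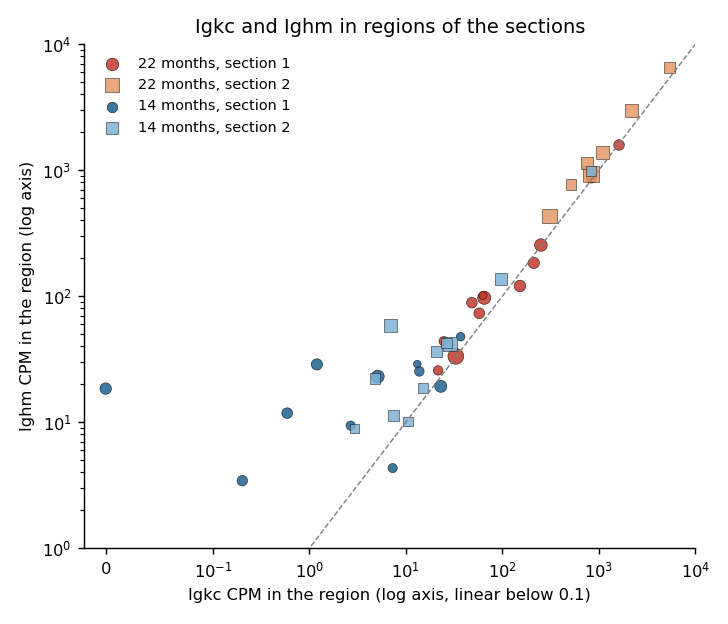
Each point is 1 of 41 regions of the 4 sections, with Igkc CPM (horizontal, logarithmic above 0.1) and Ighm CPM (vertical, logarithmic); point size grows with the number of spots and the dashed line marks equal values. Regions of the sections of 22 months follow the line up to 5374 and 6489 CPM, and some regions of 14 months lie far above it, such as the one with no Igkc UMI and Ighm at 18.4 CPM.

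Across spots the chains and Jchain went together in 3 of the 4 sections. On log counts per 10000, Pearson's r of Igkc with Ighm was 0.75 and 0.81 in sections 1 and 2 of 22 months (1321 and 1105 spots), 0.23 in section 1 (939 spots) and 0.73 in section 2 of 14 months (1123 spots). With Jchain it was 0.65 and 0.73 at 22 months and 0.26 and 0.69 at 14 months, and of Jchain with Mzb1 0.60, 0.66, -0.01 and 0.56 in the same order. Igha had r with Igkc of 0.36 and 0.09 at 22 months and 0.26 and 0.09 at 14 months, and Tnfrsf17 had r at or below 0.10 with every other member in every section, at counts of 14 to 23. For Derl3 with Igkc r was 0.19 and 0.40 at 22 months. At 14 months it was 0.01 and 0.02, on 11 Derl3 UMIs in each section. Spots of a section share a library, a depth range and neighbours, so these values are descriptions.

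Among 10694 genes of at least 5 CPM in every section, those most like the summed constant genes were antigen-presentation genes. The MHC class II genes H2-Ab1, H2-Eb1 and H2-Aa had mean r of 0.251, 0.242 and 0.242 over the sections, and Cd74, the invariant chain of class II, 0.230, where the median gene had 0.0133. They were followed by Lyz2 (lysozyme, 0.195), Fbln1 (an extracellular matrix protein, 0.195), the ribosomal gene Rpsa (0.194), Apoe (0.187), Laptm5 (0.186) and Cd52 (0.181). These are weak correlations, and none of the 10 reached 0.36 in any section. The filter left out B lineage genes such as Cd79a and Ms4a1, which lay below 5 CPM in some sections. In sections 1 and 2 of 22 months and 1 and 2 of 14 months r was 0.29, 0.35, 0.007 and 0.25 for Cd79a. For Ms4a1 it was 0.02, 0.24, -0.02 and 0.34. The ranking therefore does not set the 10 genes against B lineage genes.

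In the droplet libraries Jchain was concentrated in few barcodes. Barcodes with at least 50 Jchain UMIs numbered 4 of 9080 in the library of 22 months, 19 of 6378 at 3 months, 38 of 3023 and 4 of 1021 at 12 months, and 25 of 3224 at 24 months. The detrusor-only library had 6 of 6400, the detrusor-enriched library 1 of 6163 and the nuclei 0 of 3472, which allows up to 0.0864% (3 counts). As shares these were 0.0441%, 0.298%, 1.26%, 0.392%, 0.775%, 0.0938% and 0.0162%. The 97 barcodes held 90.6% to 98.4% of all Jchain UMIs of their libraries.

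The step at the threshold differed between libraries. At 22 months the lowest barcode inside the threshold had 391 Jchain UMIs and the highest outside 3, in the smaller library of 12 months these were 249 and 2, and in the detrusor-enriched library 1775 and 6. At 3 months they were 61 and 37, in the larger library of 12 months 75 and 43, at 24 months 94 and 30 and in the detrusor-only library 91 and 26, so in these 4 the threshold falls within a slope. At a threshold of 100 UMIs, chosen after seeing the data, the 3-month library held 12 barcodes in place of 19, and the others kept between 5 of 6 and all of theirs. A median of 7.10% of a barcode's UMIs were Jchain, and in 1 barcode of 22 months 36.9%. The whole-bladder tables do not list the constant genes, so their UMIs are missing from those totals. In the detrusor libraries, which list them, Jchain made up 0.418% to 6.28% of the UMIs of such a barcode.

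**Figure D3:**
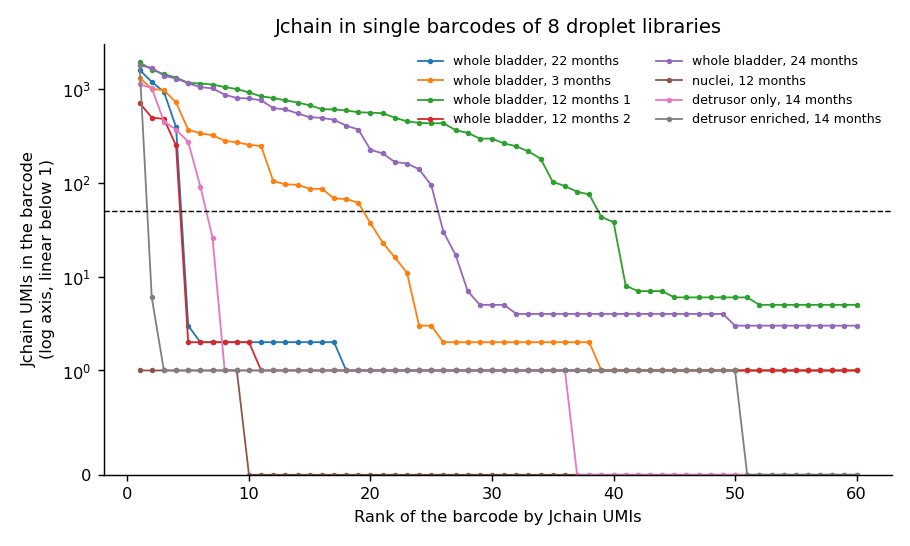
Jchain UMIs (vertical, logarithmic above 1) of the 60 barcodes with the most in each of the 8 droplet libraries, by rank; the dashed line marks 50 UMIs. In the library of 22 months and in the smaller one of 12 months the count drops from 391 or 249 to 3 or 2 in 1 step, and the nuclei never exceed 1.

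Of the 97 barcodes, 96 had an Mzb1 UMI, 84 Derl3 and 52 Tnfrsf17. Xbp1, which encodes the factor that expands the secretory pathway of plasma cells, was found in 96, at 715 to 4650 CPM per library against 71.2 to 298 CPM in all other barcodes. Of the 12 plasma cell identity genes 7 were higher than in the other barcodes in all 7 libraries, among them Slamf7 (205 to 376 against 2.88 to 17.2 CPM), Pou2af1 (186 to 340 against 0.0723 to 2.80 CPM) and Sdc1, which encodes syndecan 1 (260 to 846 against 17.6 to 361 CPM). Irf4 and Pim2 were higher in 6, Prdm1 in 5, Cd38 in 3 and Fcrl5 in 1 of the 7. Cd38 had 8 UMIs in the 97 barcodes, with a median over libraries of 0 CPM against 10.7 CPM elsewhere. The share of all genes that were higher in all 7 libraries was not counted. The barcodes were chosen by Jchain, so no test was made. Totals of whole-bladder barcodes lack the unlisted constant genes, so CPM ranges over the libraries mix totals with and without them.

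Genes of the secretory machinery list were described in the same way. Of the 16 genes 14 were higher in every library that lists them, and Fkbp2 and Dnajb9 in 6 of 7. The share of all genes that did so was not counted. The chaperone Hsp90b1 stood at 1235 to 7317 CPM against 192 to 525 CPM elsewhere, Sec11c, a subunit of signal peptidase, at 975 to 2696 against 50.3 to 90.3 CPM, and Txndc5, a disulfide isomerase, at 1125 to 3437 against 38.2 to 267 CPM. Edem1, which sends misfolded glycoproteins to degradation, stood at 130 to 2014 against 16.3 to 36.1 CPM.

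B cell markers were present in part, and 3 of the 14 listed were higher than elsewhere in every library. Cd79a was found in 90 of the 97 barcodes and Cd79b in 91, but Ms4a1 (CD20) in 37, and Pax5 and Cr2 in none. Of 10 survival and homing genes 3 had no UMI in any of the 97 barcodes, the ligand gene Tnfsf13 (APRIL), Ccl28 and Pigr. In the other barcodes these 3 stood at or below 0.232 CPM in every library, so their absence does not set the 97 apart. The T cell marker Cd3e was at 0, and none of the listed T or NK, macrophage, fibroblast, urothelial or smooth muscle genes was higher in all 7 libraries. The detrusor-enriched library had 1 Jchain-rich barcode, and those of 22 months and the smaller one of 12 months 4 each. A scarce gene can therefore miss this mark by its low level alone. The share of all genes that reached it was not counted. The T or NK gene Cd2 was higher in 6 of the 7, with a UMI in 29 of the 97 barcodes. Of the 97 barcodes 86 lay in clusters named B lineage-like from markers other than the 9 genes, and 11 in other clusters, among them all 4 of 22 months in a dendritic-like one and all 4 of the smaller library of 12 months in a macrophage-like one.

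Beside these, 4 libraries held B lineage-like barcodes below 50 Jchain UMIs, 54 at 3 months, 23 in the larger library of 12 months, 25 at 24 months and 23 in the detrusor-only library. Ms4a1 was found in 72.2%, 78.3%, 92.0% and 78.3% of them. Mzb1 was found in 55.6%, 100%, 92.0% and 78.3%, so it marked both kinds of barcode, whereas Derl3 was found in 1.85%, 21.7%, 4.00% and 0% and Tnfrsf17 in 1 of the 125 barcodes. In the detrusor-only library they stood at 3356 CPM for Igkc and 2023 for Ighm, with Ighd in 56.5% and Jchain in none.

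Away from these barcodes Jchain was found at a like level in unlike cells. In the larger library of 12 months 56.5% of urothelial-like and 29.9% of fibroblast-like barcodes had a Jchain UMI, at 61.7 and 61.5 CPM, and after thinning to 1000 UMIs 5.82% and 6.70%. At 3 months the levels were 22.3 CPM in both, and at 22 months 14.5 and 13.9 CPM, with 3.08% to 6.38% of barcodes. The levels in CPM were alike in both classes, whereas the raw shares differed in the larger library of 12 months. These low counts are not read as expression, and their source was not tested. Apart from these low counts, 6 barcodes outside the 97 had 23 to 43 Jchain UMIs.

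The chains could be read in the detrusor and nuclear libraries. Barcodes with at least 100 immunoglobulin UMIs numbered 7 in the detrusor-only library (95.8% of its immunoglobulin UMIs; lowest 492, next outside 95), 1 in the detrusor-enriched library and 0 in nuclei. Each of the 8 had 1 dominant kind of light chain, kappa or lambda, with 97.1% to 100% of light-chain UMIs, and 1 dominant heavy chain, 99.6% to 100%. Between 46.0% and 65.1% of the UMIs of such a barcode were immunoglobulin constant genes.

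The 8 barcodes differed in their chains. The first of the detrusor-only library had 12203 UMIs of Igkc, 2729 of Ighm and 1115 of Jchain. The second had 10758 of Igkc with 2769 of the IgG gene Ighg2c, 3 of Igha, 0 of Ighm and 91 of Jchain. The next had 9878 of Iglc1, 0 of Igkc, 1136 of Igha and 448 of Jchain. These 3 barcodes thus carried a kappa IgM, a kappa IgG and a lambda IgA pair. Another 3 carried Igkc (4337 to 6703 UMIs) with Ighm (984 to 1692), and the last, of only 886 UMIs, Igkc (412) with Ighm (77) in a fibroblast-like cluster. The single one of the detrusor-enriched library had 13266 of Igkc, 4473 of Ighm and 1775 of Jchain.

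Since so few barcodes carried the chains, library totals rested on them. The lambda IgA barcode held 9878 of the 10253 Iglc1 UMIs and 1136 of the 1157 Igha UMIs of the detrusor-only library, where Iglc1 stood at 196 and Igha at 22.1 CPM. In the detrusor-enriched library these stood at 0.722 and 0.108 CPM, with 40 and 6 UMIs. Igkc stood at 794 CPM in the detrusor-only, 246 in the detrusor-enriched and 21.5 in the nuclear library, and Ighm at 160, 93.9 and 21.5 CPM. With 1 library of each kind these levels carry no test.

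Ighm and Tnfrsf17 were also found outside the B lineage, in macrophage-like barcodes. In the detrusor-only library Ighm was found in 305 of 354 macrophage-like barcodes, 86.2% (exact 95% interval 82.1 to 89.6), at 366 CPM, with at most 14 UMIs in a barcode. Igkc was found in 6 of them, 1.69% (0.625 to 3.65), at 1.92 CPM. In 3388 fibroblast-like barcodes of near-equal median depth (8942 against 8628 UMIs) Ighm was found in 1.86% and Igkc in 3.13%. After thinning to 1000 UMIs the shares with Ighm were 31.6% and 0.242%.

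Tnfrsf17 had the same place. It was found in 156 of these 354 barcodes, 44.1% (38.8 to 49.4), at 74.5 CPM, in 0.207% of fibroblast-like barcodes, and in 3 of 29 B lineage-like ones. These macrophage-like barcodes held 92.5% of the Tnfrsf17 UMIs of the library. They had 0 UMIs of Jchain and of Cd79a, while Cd79b was found in 11.3% and Ighd in 7.06%. Ighm was found in 143 of the 156 barcodes with Tnfrsf17, 91.7%, and in 81.8% of the others.

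The detrusor-enriched library showed the pattern at a lower share. Of its 275 macrophage-like barcodes 56.4% (50.3 to 62.3) had Ighm, 14.2% (10.3 to 18.9) Tnfrsf17 and 4.73% Igkc, against 1.76%, 0.0783% and 4.03% of 2555 fibroblast-like barcodes. C1qa was found in 69.8% of this class, against 100% in the detrusor-only library. With finer clusters, at resolution 2, the shares were 73.8% for Ighm and 31.2% for Tnfrsf17. Ighm was found in 89.7% of macrophage-like barcodes with Tnfrsf17 and in 50.9% of those without. In nuclei, 18 of 71 macrophage-like barcodes had Ighm, 25.4% (15.8 to 37.1) against 3.35% of fibroblast-like ones, and none had Tnfrsf17, which allows a share of up to 4.23% (3 counts). Igkc was found in 7.04% of these macrophage-like nuclei and in 2.85% of all nuclei.

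Other immune classes lay between. Ighm was found in 32.5% of 120 dendritic-like and 17.6% of 91 T or NK-like barcodes of the detrusor-only library, with Igkc in 3.33% and 4.40%. Whether some of these barcodes hold a B cell beside another cell was not tested, and no doublet caller was run.

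**Figure D4:**
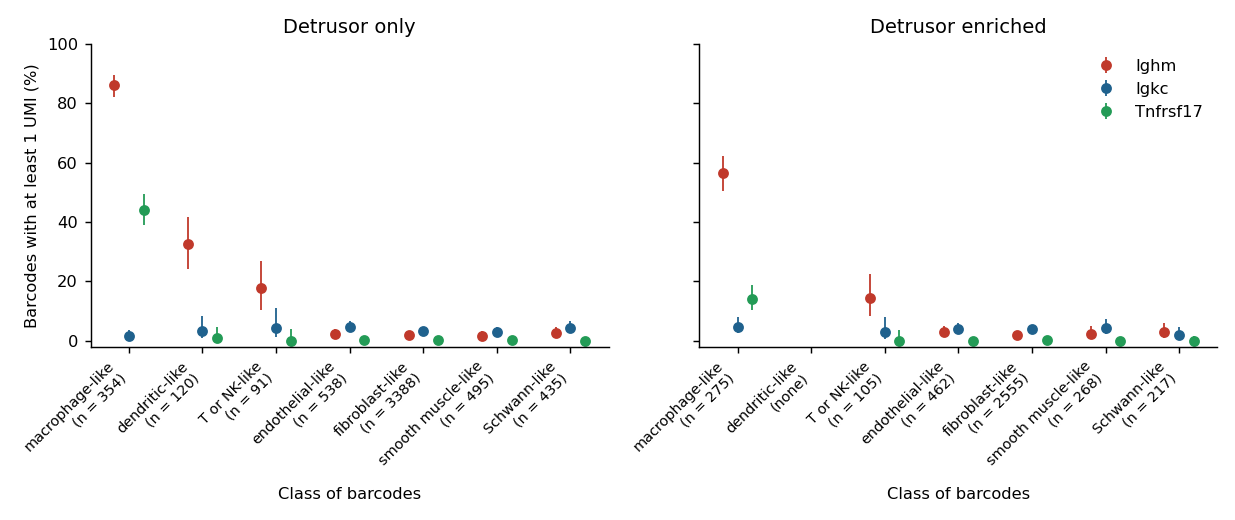
Share of barcodes with at least 1 UMI (vertical, percent) of Ighm, Igkc and Tnfrsf17 by class of barcodes in both detrusor libraries; points are shares, bars exact 95% binomial intervals, n the barcodes of a class. Ighm and Tnfrsf17 stand highest in the macrophage-like class, at 86.2% and 44.1% and at 56.4% and 14.2%, while Igkc stays below 5% in every class drawn; B lineage-like barcodes are not drawn.

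The whole-bladder libraries do not list Ighm, and 3 of the 5 had Tnfrsf17 in macrophage-like barcodes outside the Jchain-rich ones. It was found in 16 of 469 macrophage-like barcodes at 22 months, 3.41% (1.96 to 5.48), in 14 of 446 at 3 months, 3.14% (1.73 to 5.21), and in 7 of 37 at 24 months, 18.9% (7.96 to 35.2). In fibroblast-like barcodes of these libraries the share was 0.0208%, 0.0375% and 0%. At 22 and 3 months all of these barcodes lay in 1 cluster each, with C1qa in 98.6% and 94.9% of barcodes. Median depth was 2884 UMIs at 22 months, 2222 at 3 months and 5793 at 24 months, so the shares are not ranked by age. In the smaller library of 12 months 3 of 68 macrophage-like barcodes had Tnfrsf17, and 0 of 64 without the Jchain-rich ones, but C1qa was found in only 14.1% of those 64. The larger library of 12 months had no cluster named macrophage-like.

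The share of Tnfrsf17 inside the Jchain-rich barcodes ranged widely. The barcodes with at least 50 Jchain UMIs held 71.0%, 93.8% and 81.7% of its UMIs in the libraries of 12, 12 and 24 months, 31.4% at 22 months and 15.4% at 3 months, and 2.38% and 13.9% in the detrusor-only and detrusor-enriched libraries. For Mzb1 the same share ran from 68.2% to 93.3%. For Derl3 it was 72.9%, 78.9% and 81.4% in the libraries of 12, 12 and 24 months, 51.6% at 22 months, 84.6% at 3 months, 52.7% in the detrusor-only and 16.1% in the detrusor-enriched library.

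Whole-bladder cells gave a comparison of older with younger animals. Jchain stood at 172 CPM at 22 months and 531 at 24 months, and at 534 CPM at 3 months and 678 and 117 at 12 months. Mzb1 stood at 6.00 and 41.1 against 36.9, 109 and 8.57 CPM, Derl3 at 1.20 and 3.14 against 3.92, 9.42 and 1.09 CPM, and Tnfrsf17 at 1.36 and 1.67 against 1.96, 1.72 and 0.920 CPM. The smaller 12-month library lay below both older ones for Jchain, and the ages overlapped for all 4 genes. Of all 14894 genes tested, 6.97% did not overlap between the ages, and 3.87% lay higher in both older libraries.

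In edgeR's quasi-likelihood test with a term for the sex mix, which also follows the table format, 0% of all genes and 0 of the 4 were called. Without adjustment 1410 genes passed 0.05, and DESeq2 called 218. The fitted log2 fold change of older over younger was -0.40 for Jchain (SE 0.98, adjusted p = 0.95), -1.32 for Mzb1 (SE 1.29, adjusted p = 0.85), -1.13 for Derl3 (SE 0.87, adjusted p = 0.80) and -0.04 for Tnfrsf17 (SE 0.40, adjusted p = 0.99). Without the 22-month, the 3-month or the larger 12-month library in turn, the fitted change was 0.35, 0.35 and 0.27 for Jchain and 0.20, 0.21 and 0.15 for Tnfrsf17, so neither kept its direction. With a library left out the change ran from -2.52 (without the 24-month library) to -0.16 for Mzb1 and from -1.62 (without the smaller 12-month library) to -0.11 for Derl3, the highest of both without the larger 12-month library. Within the male pools Jchain was lower at 22 than at 3 months (172 against 534 CPM), and within the mixed pools the 24-month value of 531 CPM lay between the values of 12 months. Of 11 B cell genes tested 1 was positive, with a median of -0.61 and 0 called; the median was 0.20 without the 22-month, 0.21 without the 3-month and -1.43 without the 24-month library. The sections and the cell libraries compared different ages, so their values stand side by side only.

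Bulk libraries gave a comparison of dissociated with intact bladder. Jchain stood at 8.01, 264 and 235 CPM in intact libraries 1 to 3 and at 320, 670 and 65.6 CPM in dissociated libraries 1 to 3, or 169 ± 140 against 352 ± 303 (SD, n = 3 each). Mzb1 stood at 0.953, 20.7 and 12.8 against 13, 48.5 and 2.07 CPM, and Derl3 at 0.953, 9.90 and 6.69 against 5.76, 15.1 and 1.36 CPM. Tnfrsf17 stood at 0.477, 1.56 and 0.885 against 1.14, 2.59 and 0.703 CPM. Intact library 1 was the lowest of the 6 for all 4 genes and dissociated library 2 the highest, and the groups overlapped for each gene.

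**Figure D5:**
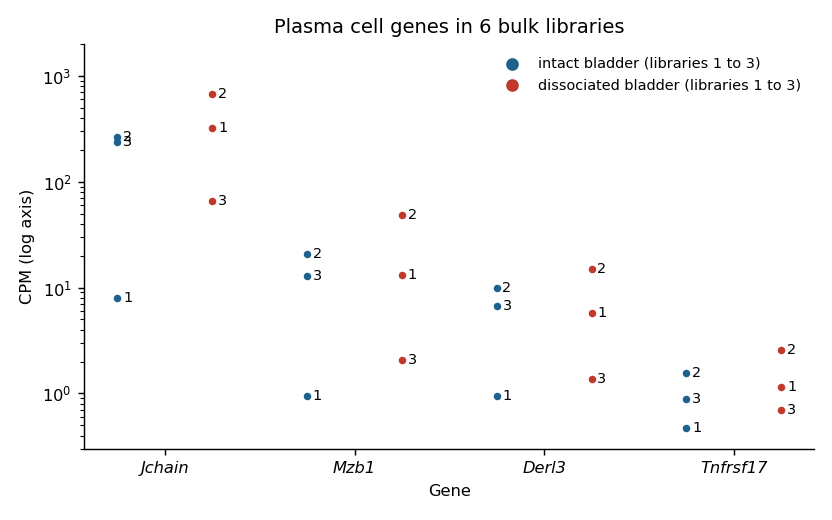
CPM (vertical, logarithmic) of Jchain, Mzb1, Derl3 and Tnfrsf17 in 3 bulk libraries of intact and 3 of dissociated bladder; each point is a library and the digit its number. Intact library 1 is lowest and dissociated library 2 highest for every gene, and the preparations overlap.

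None of the 4 genes was called in edgeR's quasi-likelihood test, where 59.2% of 16538 genes were called, and 67.2% did not overlap between the groups. The fitted log2 fold change of dissociated over intact was 1.15 for Jchain (SE 1.18, adjusted p = 0.43), 0.95 for Mzb1 (SE 1.17, adjusted p = 0.51), 0.41 for Derl3 (SE 0.88, adjusted p = 0.71) and 0.64 for Tnfrsf17 (SE 0.55, adjusted p = 0.34). Without dissociated library 2 the fitted change of Mzb1 was -0.48, of Derl3 -0.59 and of Tnfrsf17 -0.004. Without intact library 1 that of Derl3 was -0.08. With a library left out that of Jchain ran from 0.33, without dissociated library 2, to 1.64, without dissociated library 3.

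Jchain, Mzb1 and Derl3 varied widely within a preparation. Between the 3 intact libraries Jchain had the widest range of all 12285 genes with a mean of at least 5 CPM, 33.0-fold, and Mzb1 (21.7-fold) ranked 3 and Derl3 (10.4-fold) 7, among B lineage genes such as Pou2af1 and Cd79a. Tnfrsf17 ranged over 3.27-fold in intact and 3.69-fold in dissociated libraries. Only 6 genes ranged over more than 10-fold with 0.1 CPM added, and the median gene over 1.12-fold. Between the dissociated libraries Mzb1 ranged over 23.5-fold, Derl3 over 11.0-fold and Jchain over 10.2-fold, at ranks 12, 31 and 32 of 12107 genes, behind B cell genes such as Ccr6, Pax5, Fcer2a and Ms4a1.

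Among the 14 B cell genes, 13 were highest in dissociated library 2, 8 were lowest in intact library 1 and 5 in dissociated library 3. Cd79a stood at 0.780, 12.5 and 12.2 CPM in intact and at 15, 79.4 and 3.60 CPM in dissociated libraries, and Ms4a1 at 1.04, 11.4 and 8.88 against 12.2, 91.7 and 2.19 CPM. The fitted change was positive for all 14, with a median of 2.01 beside -0.03 over all genes. Without dissociated library 2 it was positive for 11 of 14, with a median of 0.27. The 1 gene called was Ly6d (0.43), which was highest in dissociated library 3 (669 CPM) and not in library 2. It stood at 2353 to 3185 CPM in every section, where Cd79a stood at 0.273 to 16.2 CPM, and so did not follow the other B cell genes. In the fit of all 6 libraries 1 of the 14 thus rose, where 27.9% of all genes did. Without dissociated library 3, 6 of the 14 rose, where 27.7% of all genes did. Without dissociated library 1 or 2 Ly6d alone rose, where 27% and 26.3% of all genes did. Without 1 of the intact libraries 0 did, where 22.5% to 24.3% of all genes did.

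Some other genes of the plasma cell programme were higher in dissociated than in intact libraries. Of 12 plasma cell identity genes 7 rose, where 27.9% of all genes did, and none fell, where 31.3% did, among them Prdm1 (log2 fold change 2.21), the elongation factor Ell2 (2.00) and Slamf7 (1.5). Irf4, called at 1.44, stood at 7.62, 18.6 and 16.2 CPM in intact and at 24.1, 65.2 and 18.8 CPM in dissociated libraries. Without dissociated library 2 its change was 0.73 and it was not called (edgeR adjusted p = 0.095), nor was it without any 1 intact library. Xbp1 rose from 128, 159 and 163 to 240, 255 and 237 CPM. Of 16 secretory machinery genes 8 rose and none fell, led by the chaperone genes Dnajb9 (1.75) and Hspa5 (1.67), Fkbp11 (0.99) and Edem1 (0.68). With intact library 1 left out 4 of the 12 and 4 of the 16 rose, where 22.5% of all genes did. Edem1 was not called without intact library 1 or 3 (edgeR adjusted p = 0.071 and 0.060). Other cell types changed in the same comparison: all 10 fibroblast genes (median 1.38), 9 of 10 endothelial, 11 of 12 macrophage or monocyte, 8 of 10 dendritic and 4 of 10 T or NK genes rose, and all 10 smooth muscle genes fell (median -3.84). Many cells express the plasma cell programme genes, and the part of this changed mix was not tested.

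Of 10 survival and homing genes 6 rose and 1 fell, where 27.9% of all genes rose and 31.3% fell. The cytokine gene Il6, a survival signal of plasma cells, had 1, 2 and 2 reads in intact and 5094, 4761 and 4017 reads in dissociated libraries. The chemokine receptor gene Cxcr4 rose by 2.86 on the log2 scale and Tnfsf13, which encodes APRIL, by 1.15. Cxcr5, called at 2.53, stood at 1.82, 3.56 and 4.27 CPM in intact and at 7.76, 42.2 and 2.81 CPM in dissociated libraries, which overlap. Without dissociated library 2 its change was 0.86 and it was not called (edgeR adjusted p = 0.16), nor was it without any 1 intact library. Pigr, the receptor that carries IgA and IgM across epithelia, fell by 3.14, from 11.4, 11.8 and 13.3 to 0.712, 1.07 and 2.07 CPM. The erythroid list, a sign of blood, rose in 5 of 5 genes (median 2.09), and its part in these values was not tested.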

How the data were processed

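The deposited droplet and Visium tables hold UMI counts per gene and barcode, and the deposited bulk table read counts per gene, per the file headers and the whole-number values. Per the submitters' processing notes the authors used Cell Ranger, Space Ranger, bcl2fastq and Subread featureCounts on mm10; versions and barcode filters are not given in the sources used here. All deposited barcodes and spots entered, and no doublets were removed. Barcodes were clustered per library with scanpy 1.11.5 (2000 variable genes, 30 principal components, 15 neighbours, Leiden resolution 1) without the 9 genes and other immunoglobulin genes. A cluster was named from at least 3 raised markers of a list.

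Counts summed per section or library, and bulk counts, were tested with edgeR 4.0.16 (R 4.3.3; TMM, filterByExpr, robust quasi-likelihood fit, Benjamini-Hochberg adjustment over all genes tested), after checks on simulated counts. Alternatives were DESeq2 1.42.0, other scalings, no filter, at least 500 UMIs, thinning, finer clusters and each replicate left out, the last added for the gene lists after seeing the data. Adjusted p-values come from these fits across all genes. Genes named were the 9 members, list genes with the largest called changes, and the 10 genes most like the constant genes across spots; others named were chosen after their values were seen. Thresholds of 50 Jchain and 100 immunoglobulin UMIs were set on these data. The members and lists were chosen with earlier results of these data known.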

Additional observations from a re-analysis of the deposited data

How the results depend on the processing

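Of all genes, the sections gave 0 calls by edgeR but 419 by DESeq2, 66 with library size alone and 287 with no filter, and 1 to 271 with a section left out. Whole-bladder cells gave 0 by edgeR, 218 by DESeq2, 204 with no filter and 0 to 413 with a library left out, 413 being the count without the 24-month library. The bulk count of 9798 stayed between 8128 and 9782 with a library left out and within 1.5 times under every other setting. The cause of these shifts was not tested. In bulk, library size alone moved the median of all genes from -0.03 to -0.14 and the calls to 3836 higher and 6175 lower, against 4620 and 5178.

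With a library left out, fitted changes ran in bulk from -0.59 to 1.04 for Derl3 (-0.59 without dissociated library 2, -0.08 without intact library 1), from -0.48 to 1.70 for Mzb1 and from -0.0038 to 1.20 for Tnfrsf17, the lowest of both without dissociated library 2. In sections Igha ran from -0.44 (without section 1 of 22 months) to 4.14, and in whole-bladder cells Jchain from -1.53 to 0.35 (0.35, 0.35 and 0.27 without the 22-month, 3-month and larger 12-month library) and Tnfrsf17 from -0.43 to 0.21 (0.20, 0.21 and 0.15).

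The labels do not say whether equal replicate numbers pair the bulk libraries. Deviations of same-numbered libraries correlated at 0.20, 0.34 and -0.07, and those of other pairs at -0.44 to 0.28. With 3 libraries of each preparation these values cannot decide it. With a replicate block 10011 genes were called and the 4 plasma cell genes were not. Replicate numbers of sections and droplet libraries were given in accession order and pair nothing.

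Thinned to 1000 UMIs, the share of detrusor-only macrophage-like barcodes with Ighm fell from 86.2% to 31.6%, by construction. Of the other levels that moved by more than their error, 82 did so under thinning and 7 under other settings. At least 20 or 100 Jchain UMIs, chosen after seeing the data, gave 103 and 85 barcodes in place of 97. Depth limits what low counts show: Tnfrsf17 rested on 14 to 23 UMIs in a section.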

Other observations

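Among the 8 genes with the widest range between the intact bulk libraries, the exceptions to B lineage and plasma cell genes were Retn and Cfd, which adipocytes express. Retn stood at 7.67, 0.902 and 10.2 CPM and Cfd at 69.9, 12.6 and 103 CPM in intact libraries 1 to 3. They were lowest in library 2, where Jchain stood at 264 CPM, and so did not share the order of the plasma cell genes, which were lowest in library 1. These 2 genes were chosen after their values were seen.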
